A study of Danio rerio with 2 samples.

Results

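Zebrafish chromosomes 3 and 12 carry hoxba and hoxbb, the clusters that hold the hoxb genes of this fish, and the peaks of the retinoic acid receptor RARaa on both chromosomes are described here. Every line of the deposited peak list that lay on either chromosome of the Zv9 build was taken, whatever its height. This gave 355 distinct intervals of the 4750 in the list, 190 on chromosome 3 and 165 on chromosome 12. Because MACS2, the peak caller, listed an interval once for each summit found in it, these intervals stood on 364 lines, 196 and 168 on the respective chromosomes. The other 23 numbered chromosomes held 4192 intervals on 4280 lines and served for comparison.

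The list came from chromatin immunoprecipitation followed by sequencing (ChIP-seq), with 1 ChIP library and 1 input library. Fertilized eggs were injected with mRNA for RARaa carrying a myc tag, and the pooled embryos were labelled 10.5 hours post fertilization. By the study's methods, retinoic acid (RA) was added at that stage and the embryos grew for 1 hour more. They were then fixed in 1.85% paraformaldehyde for 10 minutes, so the label gives the age at RA addition and not at fixation. The ChIP library was pulled down with an antibody against myc, and the input library was chromatin of the same kind taken before the pulldown. Both libraries therefore carried the injected receptor and the RA treatment, and the values concern a tagged receptor made from injected mRNA in whole embryos, in addition to the receptors that embryos make themselves.

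RA receptors are transcription factors that pair with retinoid X receptors and bind RA response elements in DNA, where the arrival of RA exchanges co-repressors for co-activators. Hox genes set position along the head-to-tail axis, and those at the 3' end of a cluster are known RA targets in the hindbrain. RA also acts on its own pathway, since cyp26a1 encodes an enzyme that degrades RA and is induced by it. Of the genes treated here, hoxb1a, hoxb3a, hoxb4a and rarab lie on chromosome 3, and hoxb1b, skap1, cyp26a1 and raraa on chromosome 12. In the RefSeq annotation of a later zebrafish assembly, which was used for gene order only, chromosome 3 held 11 hoxb genes and chromosome 12 held 4. Sorted there by start position alone, hoxb1a was followed by cbx1a, hoxb5b by skap1, and cyp26a1 by exoc6. Overlapping genes can change places in such a list, so it does not settle which hoxb gene lies next to skap1.

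Each line was described by its pileup, the number of ChIP tags covering the summit after extension to 200 bp, and by its input background, the number of scaled input tags at the same place. Fold enrichment is the ratio of the first to the second after 1 was added to each. A summit was called tall at a fold enrichment of at least 10 and a line strong at a −log10 q above 5. The ChIP library held 39480982 tags and the input 51506879 after removal of tags at the same position. The genome-wide background, worked out from the ChIP tags, was 5.64 tags. On the pair 71 of the 364 lines, or 19.5%, had this value as their background, against 16.7% on the other chromosomes. Some of the 71 were tall, so their fold enrichment was not a ratio to the input at that place. Other backgrounds also need not be input counts at the summit. Each input tag was scaled to 0.767, and many backgrounds were not whole multiples of that value. With 1 library of each kind there was no replicate error and no test. Intervals in brackets are 95% limits, exact Poisson for the fold enrichment of a summit and Wilson for a share. They cover counting error only and treat lines as independent, which neighbouring lines are not. Those of fold enrichment cover the counting error of the ChIP tags alone. The background was taken as fixed, so these limits are narrower than limits that include its error.

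The number of peaks per length on both chromosomes lay inside the range of the others, while more of their tall summits stood together in a few places. Chromosome 3 had 3.01 intervals per Mb (2.60 to 3.47) over the 63.1 Mb from its first to its last peak and ranked 19 of 25. Chromosome 12 had 3.26 per Mb (2.78 to 3.80) over 50.6 Mb and ranked 15. The other chromosomes ran from 2.58 on chromosome 14 to 4.41 on chromosome 4, with a median of 3.45, so that both chromosomes lay below the middle of that order.

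The median peak on the pair was close in height to that elsewhere. The median fold enrichment was 4.01 (3.65 to 4.30) on chromosome 3 and 3.86 (3.61 to 4.34) on chromosome 12, with limits from the binomial distribution of ranks, against 3.73 on the other chromosomes. Strong lines numbered 123 of 196 on chromosome 3, or 62.8% (55.8 to 69.2), and 104 of 168 on chromosome 12, or 61.9% (54.4 to 68.9). Over all numbered chromosomes 60.2% of lines were strong, and both shares included that value in their limits.

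Tall summits made up a larger share of the lines on the pair, with limits clear of the background on chromosome 12 and not on chromosome 3. There were 19 on chromosome 3, or 9.69% of its lines (6.29 to 14.6), and 22 on chromosome 12, or 13.1% (8.81 to 19.0). The background over all numbered chromosomes was 6.85%. Chromosome 12 had the highest share of the 25 and chromosome 3 ranked 5, while the others ran from 3.70% on chromosome 9 to 12.3% on chromosome 13. Together the 41 tall summits were 11.3% of the lines (8.41 to 14.9), against 277 lines or 6.47% (5.77 to 7.25) on the other chromosomes. The difference was not tested.

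Among the 4644 lines on numbered chromosomes, 29 had a fold enrichment of at least 20. Chromosomes 3 and 12 held 4 each, of 196 and 168 lines. The other chromosomes held at most 3, with a median of 1. The 41 tall summits had pileups from 70 to 242, with a median of 128, and the other lines had a median of 31. Their input backgrounds were close, with medians of 7.76 tags for tall and 6.90 for other lines. Tall intervals were also longer, with a median of 434 bp against 250 bp. Around the threshold, 10 lines lay just below it with fold enrichments from 9.12 to 9.79, and 7 lines lay just above it, from 10.4 to 10.9.

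**Figure D1:**
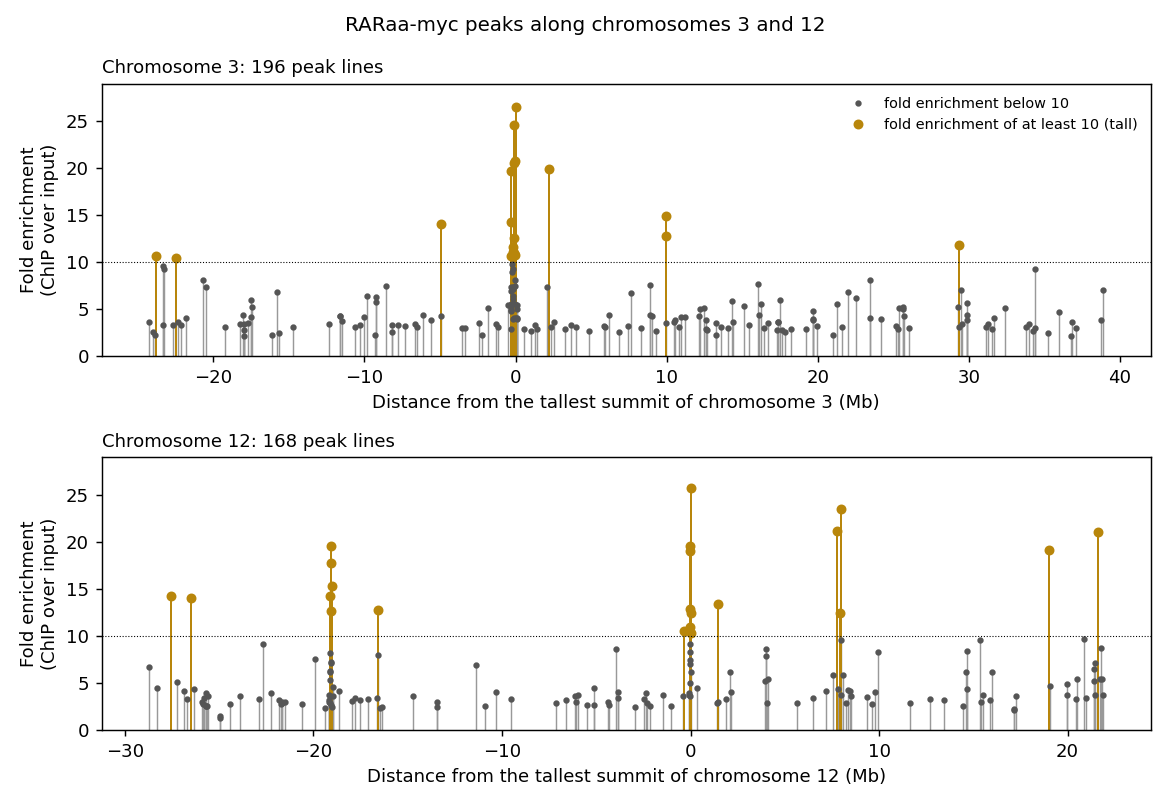
Fold enrichment of every peak line (y axis) against its distance in Mb from the tallest summit of the same chromosome (x axis), for the 196 lines of chromosome 3 and the 168 of chromosome 12. Gold points are the 41 tall summits. On chromosome 3, 12 of 19 crowd into 1 place, and on chromosome 12, 12 of 22 crowd into 2. The other tall summits lie elsewhere, and the lower peaks are spread over both chromosomes.

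Tall summits within 100 kb of each other were joined, and a set of 3 or more was called a group. By this rule the numbered chromosomes held 14 groups on 10 chromosomes, of which 4 lay on chromosomes 3 and 12. These 4 groups took in 24 of the 41 tall summits, or 58.5%. The other 10 groups took in 35 of 277, or 12.6%, and the group with the most tall summits on any other chromosome had 5, on chromosome 13. Over all numbered chromosomes 1.27% of lines belonged to a group.

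When only the tall summits of groups were taken out, the limits of the remaining tall share on the pair included the share on the rest. Tall summits were then 17 of 340 lines, or 5.0% (3.14 to 7.86), against 5.70% (5.04 to 6.44) on the other chromosomes. The lower lines inside the groups stayed in these counts. Only tall lines were removed, and a larger part of them on the pair, so the share had to fall more there. No conclusion is drawn from the overlap.

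**Figure D2:**
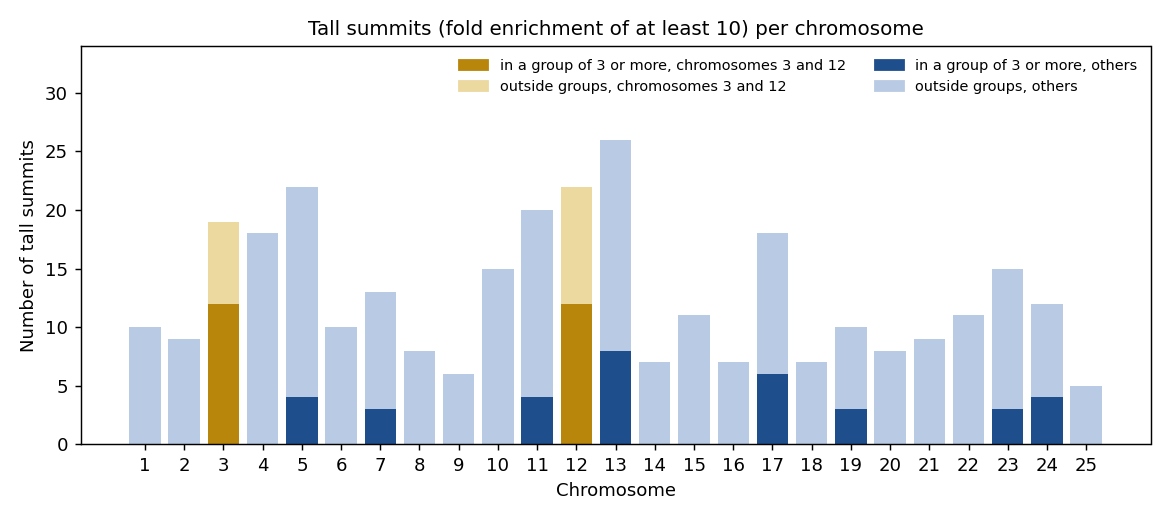
Number of tall summits on each numbered chromosome (bars), split into those in groups of 3 or more within 100 kb (dark) and those outside groups (light), with chromosomes 3 and 12 in gold. Chromosomes 3 and 12 each have 12 tall summits in groups, and the next chromosome, 13, has 8.

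The first group of chromosome 3 lay within hoxba. It had 3 tall summits over 60.3 kb, and the study's assignment of peaks to RA-regulated genes placed all of them in the promoter class of a hoxb gene. Promoter class here covers every place label of the study that begins with that word, and it does not give the distance to the gene start. The study linked a peak to the closest gene, so an assigned gene need not be the target of its peak. Hoxb genes of these paralogue groups are active in the hindbrain. The summit near hoxb4a, at chr3:24005590-24006023, had a pileup of 167 over a background of 10.7 and a fold enrichment of 14.3 (12.2 to 16.7). That near hoxb3a, at chr3:24018325-24018799, had a pileup of 158 over 7.05 and a fold enrichment of 19.7 (16.8 to 23.1). That near hoxb1a, at chr3:24065615-24066249, had a pileup of 132 over 11.5 and a fold enrichment of 10.6 (8.92 to 12.6). The hoxb1a limits lay below those of the hoxb3a summit, and the hoxb1a summit was close to the threshold for tall.

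Around the 3 tall summits were lower ones assigned to the same genes. A further hoxb3a peak at chr3:24034415-24034772 had a pileup of 45 and a fold enrichment of 5.57 (4.10 to 7.42). Further hoxb1a peaks on either side of the tall one had pileups of 53 and 61 and fold enrichments of 5.30 (3.99 to 6.90) and 4.96 (3.81 to 6.35). The limits of these 3 lower peaks overlapped. The peak of mir10c, a microRNA gene of the cluster, at chr3:24008644-24008996, had a pileup of 63 and a fold enrichment of 4.82 (3.73 to 6.15). Each of the hoxb genes hoxb3a and hoxb1a thus had 1 tall summit beside lower ones. The tall hoxb4a summit, the lower hoxb3a peak and the mir10c peak lay in elements that the study marked as highly conserved. Of the lines on the pair, 5 were marked in this way.

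The second group of chromosome 3 began 105 kb beyond the hoxb1a summit and was the group with the most tall summits on any numbered chromosome at this joining distance, although with 50 kb it fell to 6 and the hoxbb group, at 7, had more. It had 9 over 165 kb, at chr3:24171258-24336733, with fold enrichments from 10.8 to 26.5, and 4 of them reached 20. In all, 14 intervals lay inside it. The study assigned 4 of the 9 to si:ch211-84g22.1, a gene named after a sequenced clone whose function the sources used here do not give, and gave the other 5 no gene in the tables used here. Those tables list only peaks near RA-regulated genes or in conserved elements, so a peak without an entry may still lie near a gene.

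The si:ch211-84g22.1 summits differed in height. In the promoter class, at chr3:24218074-24219017, the pileup was 222 over a background of 8.05 and the fold enrichment 24.6 (21.5 to 28.1). In an intron of the gene, at chr3:24248583-24248988, the pileup was 150 over 6.35 and the fold enrichment 20.6 (17.4 to 24.1). The limits of this pair overlapped. A second intronic summit, at chr3:24241965-24242381, had a pileup of 103 and a fold enrichment of 11 (9.02 to 13.4), and the intergenic one, at chr3:24209477-24209867, had a pileup of 156 over 11.5 and a fold enrichment of 12.6 (10.7 to 14.7). These lower summits had limits below those of the upper pair.

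Before them stood 2 unassigned tall summits. The one at chr3:24171258-24171925 had a pileup of 89 and a fold enrichment of 11.6 (9.34 to 14.2), and the one at chr3:24185419-24185778 had a pileup of 97 and a fold enrichment of 11.1 (9.02 to 13.5). Their limits overlapped almost whole.

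The group ended in a triplet, 84.6 kb after the last tall si:ch211-84g22.1 summit. Its first summit, at chr3:24333182-24333733, had a pileup of 182 over 7.82 and a fold enrichment of 20.8 (17.9 to 24.0). Its middle summit, at chr3:24334871-24335341, had a pileup of 91 over 7.53 and a fold enrichment of 10.8 (8.71 to 13.2). Its last, at chr3:24336168-24336733, had a pileup of 231 over 7.76 and a fold enrichment of 26.5 (23.2 to 30.1), the highest on the pair of chromosomes. The summits were 1690 bp and 1294 bp apart, and the limits of the middle one lay below those of both neighbours.

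On chromosome 12 the group beside hoxbb had 7 tall summits within 44.8 kb, at chr12:28722709-28768828. None of the hoxb1b peaks was tall. The 4 hoxb1b lines, all in the promoter class, had fold enrichments from 4.0 to 9.12. The highest of them, at chr12:28714901-28715275, had a pileup of 120, but its background of 12.3 tags gave a fold enrichment of 9.12 (7.58 to 10.9). That pileup lay inside the range of the tall summits, and its limits included the threshold.

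The first tall summit of the group, at chr12:28722709-28723660, had no assigned gene, a pileup of 128 and a fold enrichment of 12.8 (10.7 to 15.3). The next 3 were assigned to skap1, which encodes an adaptor protein known from mammalian T cells. The summit at chr12:28733634-28734074 had a pileup of 173 over 7.90 and a fold enrichment of 19.6 (16.8 to 22.7). The summit at chr12:28734572-28735034 stood 950 bp away and had a pileup of 114 over 9.50 and a fold enrichment of 10.9 (9.05 to 13.1). Both were in the promoter class, and their limits did not overlap. The third, at chr12:28740406-28740802, lay in a skap1 intron, within an element marked as highly conserved, and had a pileup of 151 over 6.99 and a fold enrichment of 19.0 (16.1 to 22.3). The third overlapped the first skap1 summit in its limits. The study tested a conserved receptor site of a skap1 intron in transgenic fish. It drove an RA-dependent reporter in a pattern like that of hoxb1b, and the study proposes that it controls hoxbb. For that reason the study cautioned that the closest gene can be a wrong link. The other skap1 lines, at 8.27 (6.55 to 10.3) and 7.45 (5.80 to 9.43), flanked the first pair.

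This group too ended in a triplet without an assigned gene, 26.4 kb after the intronic skap1 summit. Its first summit, at chr12:28766787-28767289, had the highest pileup on either chromosome, 242 tags over 8.43, with a fold enrichment of 25.8 (22.6 to 29.2) and a −log10 q of 246. The next, at chr12:28767501-28767891, had a pileup of 107 and a fold enrichment of 12.5 (10.2 to 15). The last, at chr12:28768100-28768828, had a pileup of 78 and a fold enrichment of 10.4 (8.24 to 12.9). They stood 658 bp and 554 bp apart, closer than the summits of the chromosome 3 triplet. In both triplets 1 summit was above 25 in fold enrichment, at the far end on chromosome 3 and at the near end on chromosome 12. The triplets were noticed in the values and chosen for that.

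The other group of chromosome 12, at chr12:9650718-9733652, surrounded cyp26a1. It had 5 tall summits over 82.3 kb, with fold enrichments from 12.6 to 19.6, so that none reached 20. The study assigned 4 of the 5 to cyp26a1. The first pair in height were in its promoter class, 1522 bp apart. One, at chr12:9716299-9716707, had a pileup of 205 over 9.50 and a fold enrichment of 19.6 (17 to 22.5). The other, at chr12:9717835-9718227, had a pileup of 160 over 8.08 and a fold enrichment of 17.7 (15.1 to 20.7). Their limits overlapped.

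On the far side, a summit assigned to cyp26a1 but located in an intron of the neighbouring gene exoc6, a subunit of the exocyst that tethers secretory vesicles, had a pileup of 134 over 7.82 and a fold enrichment of 15.3 (12.8 to 18.1) at chr12:9733132-9733652. An intergenic cyp26a1 summit at chr12:9686957-9687333 had a pileup of 120 and a fold enrichment of 12.6 (10.5 to 15.1). The remaining tall summit, unassigned, at chr12:9650718-9651201, had a pileup of 127 and a fold enrichment of 14.3 (11.9 to 17). The limits of these 3 overlapped one another. Lower cyp26a1 lines stood among them at fold enrichments of 8.16, 7.19 and 7.22, the last in an element marked as highly conserved.

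**Figure D3:**
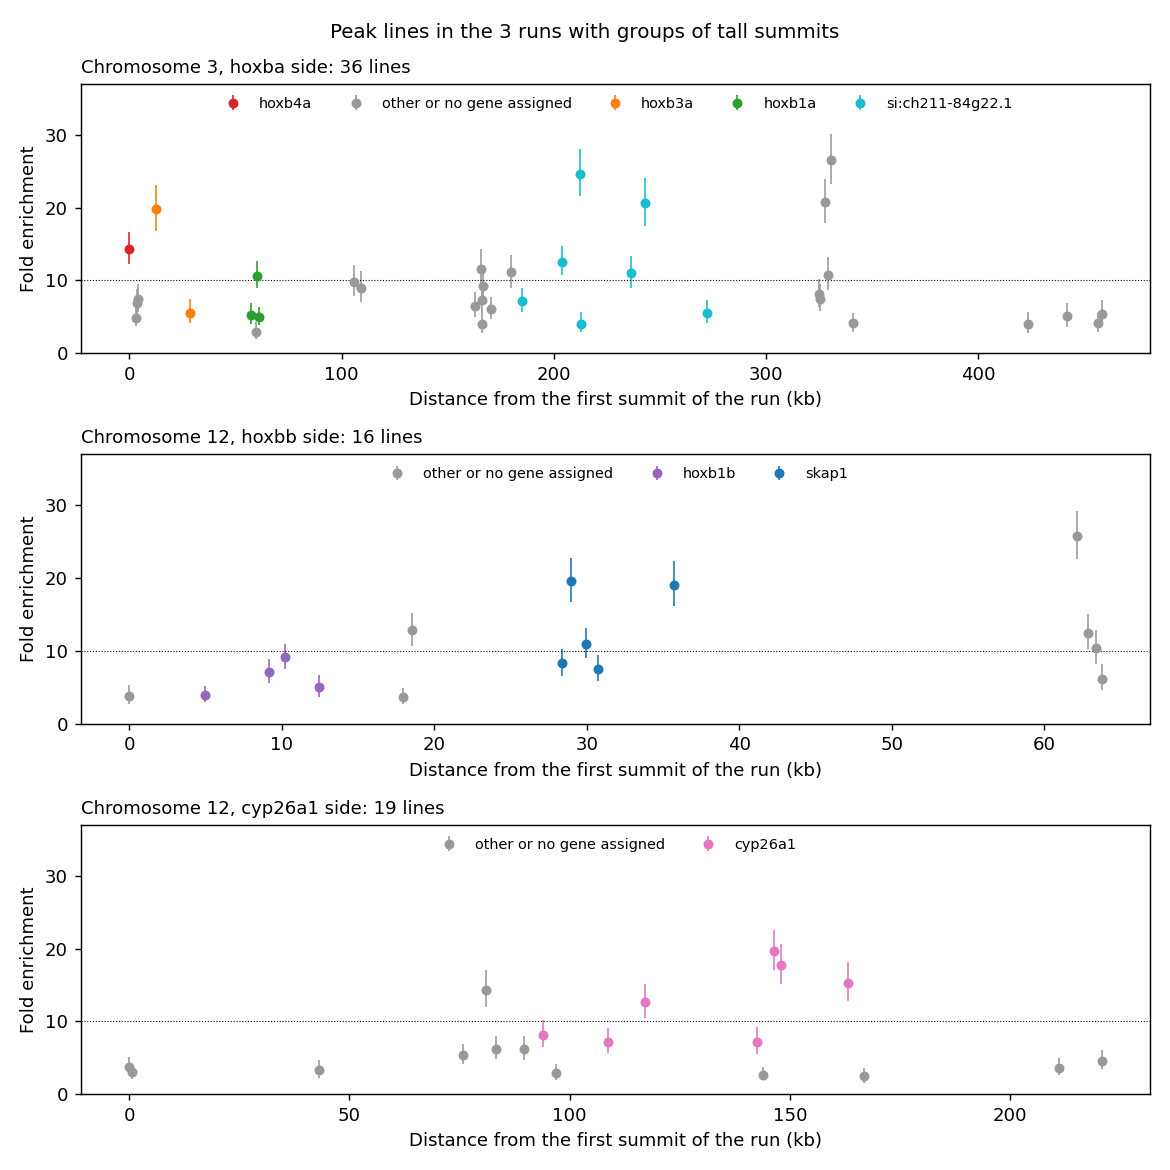
Fold enrichment (y axis) with 95% Poisson limits (bars) against distance in kb from the first summit (x axis) for every line of 3 runs of neighbouring intervals, 36 lines beside hoxba, 16 beside hoxbb and 19 around cyp26a1, coloured by the gene the study assigned. The dotted line marks a fold enrichment of 10, and the highest points of the hoxba and hoxbb runs, at 26.5 and 25.8, are in the unassigned triplets.

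The spacing inside the groups was uneven. The 4 groups held 20 gaps between neighbouring tall summits, from 554 bp to 84629 bp with a median of 11602 bp. Of these, 6 gaps were shorter than 2 kb and 9 shorter than 10 kb. The 6 shortest gaps were those of the 2 end triplets and of the promoter-class pairs assigned to skap1 and to cyp26a1.

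The same places also held runs of neighbouring intervals when height was left aside and intervals of any height within 100 kb were joined. Runs of 8 or more intervals, a minimum chosen after the values were seen, numbered 38 on the numbered chromosomes and 3 on the pair. The pair held 355 of the 4547 intervals on those chromosomes, so its number of runs was close to its share of intervals. The run at chr3:24005590-24464103 had 31 intervals, more than any of the others, and 12 tall lines. Those at chr12:9569950-9791060 and chr12:28704780-28768828 had 19 intervals with 5 tall lines and 14 with 7. Runs of 30 intervals on chromosome 8 and 18 on chromosome 7 were larger than the hoxbb run, and a run on chromosome 18 also had 14. The 35 runs elsewhere had at most 5 tall lines, a count in which height plays a part again.

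Lines in these runs were higher than the rest of their chromosome, although height had no part in joining them. The median fold enrichment was 7.36 in the chromosome 3 run and 3.62 outside it, and 7.19 in the chromosome 12 runs and 3.61 outside. The median input background within the runs was 7.85, 8.74 and 8.28 tags in the order given above, each under 28.2 tags, which is 5 times the genome-wide level. Runs elsewhere could be as high with fewer intervals. Taking the highest line of each interval, the median was 8.16 in the chromosome 3 run, 6.16 around cyp26a1 and 9.75 beside hoxbb, and the highest median elsewhere was 9.33, in a run of 9 intervals on chromosome 13 with a median background of 8.43 tags. The other run of comparable size, with 30 intervals on chromosome 8, had no tall line and a median background of 24.1 tags. The chromosome 3 run held 16.3% of the intervals of its chromosome in 0.727% of the span, and the chromosome 12 runs held 20% in 0.564%. Without them the densities were 2.54 and 2.63 intervals per Mb.

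Along the chromosomes the peaks were uneven. In steps of 10 Mb from the start, chromosome 3 had between 21 and 51 intervals in the 6 steps before its last, incomplete one, and the step from 20 to 30 Mb, which holds hoxba, had 51 intervals and 13 of the tall ones. On chromosome 12 the step from 0 to 10 Mb, which holds cyp26a1, had 50 intervals and 7 tall ones, that from 10 to 20 Mb had 17 and 1, and that from 20 to 30 Mb, which holds hoxbb, had 37 and 8. In windows of 1 Mb, that from 24 to 25 Mb on chromosome 3 had 32 intervals and 12 tall lines, and among 1365 windows it ranked 1 by tall lines and 2 by intervals. On chromosome 12 the window from 9 to 10 Mb had 20 intervals and 5 tall lines, and that from 28 to 29 Mb had 16 intervals and 8 tall lines, which ranked 2 by tall lines. The next fullest window of either chromosome had 9 intervals, and the median window had 2. The longest stretch without a peak was 3.24 Mb between summits on chromosome 3, after position 50406884, and 2.40 Mb on chromosome 12, after position 19227810. The longest stretches of the other chromosomes ran from 1589 kb to 3352 kb, which included both.

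Close pairs were commoner on chromosome 12 than on chromosome 3. On chromosome 12, 42 of 165 intervals, or 25.5%, had a neighbour within 10 kb, rank 2 of 25. The cyp26a1 run held 18 of these 42 and the hoxbb run 14. The median distance to the nearest neighbour was 37.1 kb, the shortest of the 25. On chromosome 3 the count was 37 of 190, or 19.5%, rank 13, and the median distance 94.0 kb. The chromosome 3 run held 26 of these 37, so that on both chromosomes most close neighbours were in the runs. The other chromosomes had a median distance of 66.7 kb in the middle of their order, so the 2 chromosomes lay on either side of it. These orders were not tested.

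Tall summits outside the groups numbered 17 and were mostly far from one another. The 5 with the highest fold enrichment carried no gene in the tables used here. The summit at chr12:36734472-36734910 had a pileup of 206 and a fold enrichment of 23.5 (20.4 to 26.9). On the same chromosome, chr12:36560221-36560670 had a pileup of 174 and a fold enrichment of 21.2 (18.2 to 24.5), and chr12:50355529-50355916 had a pileup of 139 and a fold enrichment of 21.1 (17.7 to 24.9). The background of chr12:50355529-50355916 was the genome-wide 5.64 tags, so its fold enrichment was not a ratio to the input at that place. On chromosome 3, chr3:26536291-26536939 had a pileup of 217 over 9.96 and a fold enrichment of 19.9 (17.3 to 22.7). The limits of all 4 overlapped those of the chromosome 12 triplet's first summit. The fifth, at chr12:47779385-47779915, had a pileup of 150 and a fold enrichment of 19.1 (16.2 to 22.4). The nearest tall summit was 30.3 kb from the first of these, 144 kb from chr12:36560221-36560670 and 2576 kb from chr12:50355529-50355916.

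Both RARa receptor genes had peaks, at different heights. The raraa gene, whose coding sequence was that of the injected mRNA, had 3 lines. The one in its promoter class, at chr12:12185155-12185492, had a pileup of 118 over 8.28 and a fold enrichment of 12.8 (10.6 to 15.3). The intronic line had a pileup of 65 and a fold enrichment of 8.04 (6.24 to 10.2), and the intergenic line a pileup of 31 and a fold enrichment of 3.39 (2.34 to 4.77). The 2 lines of rarab, the other copy, had pileups of 37 and 36 and fold enrichments of 4.45 (3.17 to 6.09) in the promoter class and 4.27 (3.03 to 5.87) in an intron. The raraa summit of the promoter class lay above both rarab lines, with limits that did not overlap theirs. The study listed the rarab peaks with genes lowered by RA.

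In all, 50 of the 364 lines had a gene in the study's tables, 24 genes in number, and 16 of the 41 tall summits were among them. The 25 tall summits without an entry included both triplets. Among the assigned genes outside the groups, tall summits were found only at raraa and at polr3e, a subunit of RNA polymerase III. The polr3e summit had 14.3 at chr12:1220266-1220619, over the genome-wide background of 5.64 tags. The higher of 2 lines of ebf3, which the study listed with genes lowered by RA, was at 9.54 (7.68 to 11.7). The line of dlx3b, a homeobox gene of the placodes, was at 9.22 (7.46 to 11.3), and that of tcf7l2, a transcription factor of the Wnt pathway, at 8.64 (6.75 to 10.9). The line of bambia, a decoy receptor of the BMP pathway, was at 8.61 (7.02 to 10.5). The limits of the named lines of ebf3, dlx3b, tcf7l2 and bambia included 10.

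High input background touched few of these peaks. The level of 28.2 tags was passed by 2 lines on chromosome 12 and none on chromosome 3, of 364 lines, against 150 of 4280 on the other chromosomes. These 150 were unevenly spread, with 29 on chromosome 4, 28 on chromosome 20 and 27 on chromosome 5. The median of the other chromosomes was 2, the same as on chromosome 12. The 2 lines of chromosome 12, at chr12:3816222-3816576 and chr12:3817156-3817506, had pileups of 208 and 226 over backgrounds of 159 and 153. Their fold enrichments were 1.30 and 1.47. Their pileups were as high as those of the tallest summits, and their fold enrichments were the lowest on the chromosome. On chromosome 3 the highest background was 20.4 tags, at chr3:61100514-61100732, where the fold enrichment was 2.20.

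**Figure D4:**
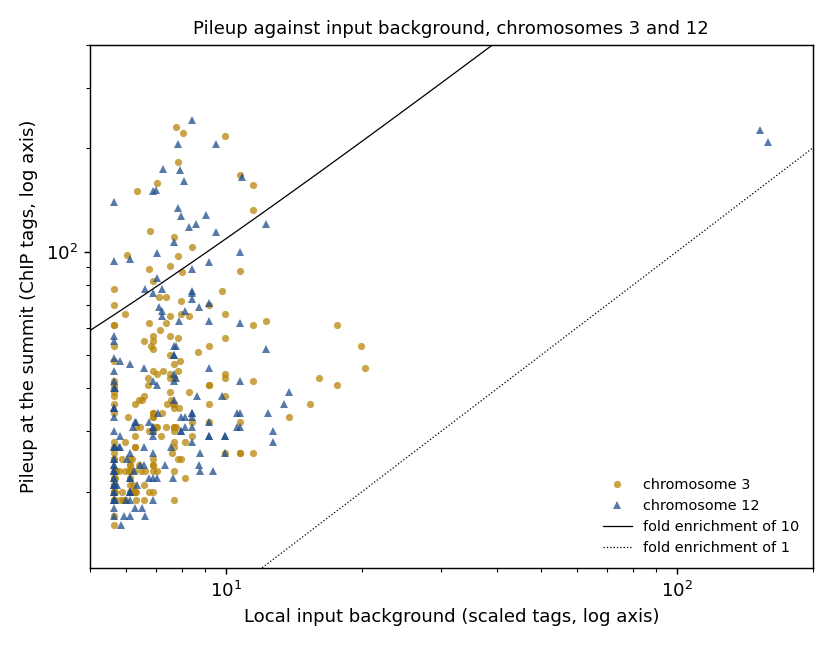
Pileup at the summit (y axis, log scale) against local input background (x axis, log scale) for the 364 lines of chromosomes 3 (circles) and 12 (triangles), with lines at fold enrichments of 10 and 1. Tall summits, above the solid line, have backgrounds of at most 11.5 tags, and the 2 triangles at the right are the lines with backgrounds of 159 and 153.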

How the data were processed

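ChIP and input reads were mapped to Zv9 with bowtie2 and peaks called with MACS2 (2.1.1.20160309) by the authors, with a q threshold of 0.05. Tag size was 41 bp, extended to 200 bp, with 1 tag kept per position, per the file headers. The deposited pileup is a signal, a count of extended tags at the summit. The deposited fold enrichment is a ratio over the local background, and the deposited −log10 p and −log10 q of each line rest on Poisson statistics. If both mates of a pair were counted, the Poisson limits are too narrow on that account also.

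The input background was recovered as (pileup + 1)/fold − 1. Poisson p-values recomputed from it differed from the deposited −log10 p by at most 0.00427%. Chromosome lengths were spans from first to last peak, and unplaced scaffolds were left out of comparisons. Genes and place words came from the study's tables of peaks near RA-regulated genes or in conserved elements. Gene order came from RefSeq (GRCz12tu), sorted by start position. No base sequence is shown, as no Zv9 genome was used here.

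The members, thresholds and gene sets were chosen with earlier results of these data known. Named were the tall summits in groups, the 5 highest outside, lines of hoxb genes, skap1, cyp26a1, raraa and rarab, the extremes of pileup and background, and the fullest windows. Other genes were named after their values were seen. The code that joins summits into groups was checked on simulated positions with known groups, which is no test of the groups themselves. Python 3.11.15, pandas 2.3.3, numpy 2.4.6 and scipy 1.17.1 were used.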

Additional observations from a re-analysis of the deposited data

How the results depend on the processing

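Of 21 alternative values for 7 results, 15 stayed within the limits of the reported value or within 1.5 times a count. With strong intervals only, density was 1.87 per Mb on chromosome 3 and 2.02 on chromosome 12. At a −log10 q above 10 the strong share was 41.5%. Tall summits numbered 63 at a fold enrichment of at least 8 and 16 at 15. Without the pseudocount the median fold enrichment was 4.41. Each follows from the altered cutoff or formula. The groups on chromosomes 3 and 12 numbered 5 with 50 kb, 4 with 250 kb, 4 at a fold enrichment of at least 8 and 3 at 15. With 50 kb the chromosome 3 group with most tall summits had 6 over 77.3 kb, below the 7 of chromosome 12, and at a fold enrichment of at least 15 it had 4, against 3 on chromosome 12 and 3 elsewhere. With 250 kb the chromosome 3 groups joined into 12 tall summits over 331 kb. On chromosome 12 the tall summits at chr12:36560221-36560670, chr12:36704212-36704581 and chr12:36734472-36734910 then formed a further group. The number of groups on the pair stayed at 4, and they took in 27 tall summits against 24. At a fold enrichment of at least 8 the chromosome 3 groups also joined, into 16 summits over 331 kb. The 4 groups at that cutoff were therefore not the same 4, and the separation on chromosome 3 depended on the cutoff. No paired analysis was possible because each arm had a single library, and no replicate could be left out. The planned search of promoter sequence for motifs was not run, as no sequence was used here. The limit of 1 tag per position caps a pileup at 400 tags, and low pileups such as 31 tags carry wide limits.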
